A study of Mus musculus with 16 samples.

Results

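The 10 genes described here encode the enzymes that remove the mRNA cap and digest RNA from the 5′ end, together with the direct partners of the main decapping enzyme. They were taken by name from the gene table of the series, which lists 46983 genes, and all 10 were found and passed the filter on low counts (at least 1 CPM, that is counts scaled to a common library size, in at least 10 of the 16 libraries) that left 12805 genes for testing. RNA was sequenced from 46C mouse embryonic stem cells (ESCs), a line from strain 129Ola that carries GFP at the Sox1 locus, grown with leukaemia inhibitory factor. All cells were transfected for 48 hr with either a non-targeting control siRNA or a siRNA against RAM, the small activating subunit of the cap methyltransferase RNMT, and were treated with cycloheximide before lysis. The lysate of each culture was sequenced (input), as was RNA pooled from the polysome fractions of its sucrose gradient. The 4 groups were control input, RAM siRNA input, control polysomes and RAM siRNA polysomes, with 4 replicates in each. All replicates came from 1 cell line, without a genetic knockout, so the RAM siRNA groups are cells with lowered rather than absent RAM transcript.

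The cap of an mRNA is bound by eIF4E at the start of translation and blocks 5′ exonucleases. In the main cytoplasmic route, shortening of the poly(A) tail is followed by cap removal by the catalytic subunit Dcp2, a Nudix hydrolase, with its activators Dcp1a or Dcp1b and the scaffolds Edc3 and Edc4. The exposed 5′ end is then digested by the exonuclease Xrn1, while its relative Xrn2 works mainly in the nucleus, where it takes part in transcription termination. Dcps, the scavenger enzyme, hydrolyses the short capped remnant left after decay from the 3′ end, Dxo removes incomplete caps and digests the RNA, and Nudt16 is a second Nudix enzyme that can remove caps. RNMT with RAM places the methyl group of the cap. The comparisons address how the transcripts of the removal machinery stood when the RAM transcript was lowered.

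Libraries held 16647523 to 20147833 counts. The target transcript, named Ramac in the annotation, stood at 10.6, 10.1, 10.8 and 11.6 CPM in control input and at 3.11, 2.67, 3.11 and 3.17 CPM in RAM siRNA input (replicates 1 to 4). Its log2 fold change was -1.84 ± 0.11 (SE, 4 against 4 libraries) with an adjusted p of 7.24e-06, from the quasi-likelihood test of edgeR, adjusted over all tested genes by the Benjamini-Hochberg method, as was every adjusted p below. In polysomes the Ramac change was -2.52 ± 0.55 (adjusted p = 0.128, and 2.36e-05 with the replicate number as a block). Rnmt, the catalytic subunit, was higher with RAM siRNA in input, by 0.37 ± 0.11 on the log2 scale (adjusted p = 0.0389). All 8 pluripotency markers examined were expressed, with group means of at least 67.4 CPM. Their summed level lay between 3986 and 4341 CPM in control input and between 3418 and 3946 CPM in RAM siRNA input. The 5 primitive endoderm markers summed to 13.2 to 14.3 CPM in control input and 16.4 to 23.2 CPM in RAM siRNA input, with 3 of the 5 under 1 CPM on average in control input and none at 0. The sums of the other lists overlapped between control and RAM siRNA input. They were 71.6 to 83.6 and 77.7 to 92.0 CPM for 6 neural markers, and 13.5 to 16.4 and 11.7 to 15.6 CPM for 4 mesoderm markers. For 6 fibroblast markers they were 8.05 to 9.63 and 8.94 to 11.3 CPM. In control input 2 of the 6 neural, 3 of the 4 mesoderm and 4 of the 6 fibroblast markers averaged under 1 CPM. Among them 2 neural and 3 fibroblast markers were at 0. The highest single marker averaged 14.9 CPM in the mesoderm list and 7.36 CPM in the fibroblast list, most of each sum. The log2 changes of the 4 tested neural markers in input ran from -0.50 to 0.42. The part of the marker shifts in the results below was not tested. Libraries of a bulk lysate cannot tell fewer cells of a type from less RNA per cell.

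Levels can be compared between genes only per length, so CPM was divided by the kilobases covered by the annotated exons of each gene. In control input Xrn2 had the highest level, 42.1 ± 2.89 CPM per kb (SD, n = 4), followed by Dcp2 with 37.6 ± 2.89, and the ranges of these neighbours overlapped. Dcps followed at 23.2 ± 2.13, Dxo at 13.9 ± 0.88, Edc4 at 11.3 ± 0.73, Dcp1a at 6.88 ± 0.13 and Xrn1 at 3.70 ± 0.33 CPM per kb, each below the gene before it with no overlap of the 4 libraries. Edc3, at 2.40 ± 0.33, and Dcp1b, at 2.33 ± 0.14, overlapped each other, and Nudt16 was lowest with 1.47 ± 0.18 CPM per kb. The catalytic subunit Dcp2 thus stood above 89.8% of the tested genes on this scale, and its activator Dcp1b above 26.9%. The places of Xrn1 and Dcp1b depend on the length used. The annotated exons of Xrn1 cover 18585 bases. Over the 5499 bases of its longest coding transcript its level in control input was 12.5 ± 1.12 CPM per kb, between Edc4 and Dcp1a. The exons of Dcp1b cover 6339 bases and its longest coding transcript 3313. On the transcript scale Dcp1b had 4.46 ± 0.26 CPM per kb, above Edc3 with 2.44 ± 0.34 and Nudt16 with 2.34 ± 0.28.

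In control polysomes the order differed. Dcps came first with 59.4 ± 10.6 CPM per kb, before Xrn2 with 37.3 ± 12.3 and Dxo with 24.4 ± 1.54, and each of these overlapped the next. Dcp2 followed with 8.41 ± 1.73 and overlapped Edc4 with 5.27 ± 2.60. Dcp1a, Edc3 and Nudt16 lay between 1.43 and 2.96, and Dcp1b and Xrn1 were lowest with 1.17 ± 0.14 and 0.89 ± 0.34 CPM per kb. Over the longest coding transcript Xrn1 had 3.01 ± 1.13 CPM per kb in control polysomes, above Edc3 (2.80), Nudt16 (2.28) and Dcp1b (2.24). The plot of CPM by library shows the 16 values of each gene.

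**Figure D1:**
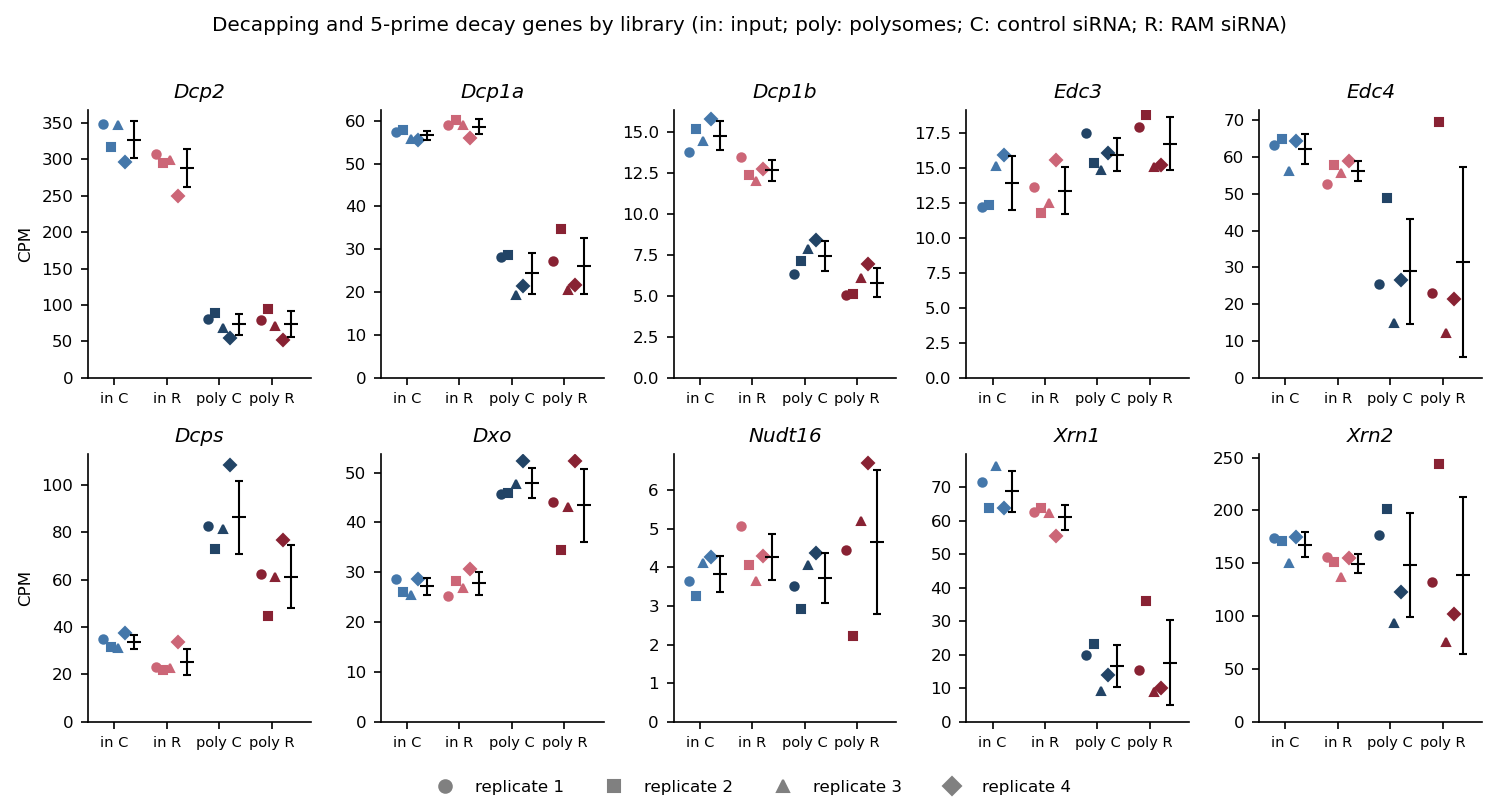
CPM (linear axis from 0) of the 10 genes in each of the 16 libraries, by group on the x axis (in, input, poly, polysomes, C, control siRNA, R, RAM siRNA), with the replicate number as symbol and mean ± SD in black. Dcp2 and Xrn1 lie far lower in polysomes than in input, Dcps and Dxo lie higher, and in polysomes replicate 2 is the highest library under both siRNAs for Dcp1a, Dcp2, Edc4, Xrn1 and Xrn2.

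The annotated windows around the gene starts were examined because 6 of 10 genes were lower in input with the replicate block, as described below. Of all genes 39.3% were called with the block, in either direction. Without it 0 of the 10 passed, against 12.9% of all genes. Whether these genes share a regulator was not tested. Windows of 300 bases (250 before and 50 after the RefSeq start, GRCm38.p6) were found for 8 of the 10 genes, all but Dcp2 and Dxo. The ETS motif CCGGAAG, searched on both strands, occurred in 5 of the 8 windows, and in 1845 of 9736 windows of tested genes (19.0%). The matches are shown in their 25-base surroundings, read on the strand where the letters are CCGGAAG, with the motif in capitals.
Dcp1b: ccccaaatgCCGGAAGgtcgccccg
Edc4: tcagtgggaCCGGAAGtggaggcgg
Xrn2: gttcagcggCCGGAAGttacgtcat
Dcp1a: ccgcgtctgCCGGAAGagacaggcc
Nudt16: tgcaagaacCCGGAAGtgcgagcct
They lie at chr6:119175195-119175219 (plus strand), chr8:105880879-105880903 (plus), chr2:147012994-147013018 (minus), chr14:30479464-30479488 (minus) and chr9:105131785-105131809 (minus). In Edc4, Xrn2 and Nudt16 the match begins 7, 4 and 5 bases after the annotated start, and in Dcp1b and Dcp1a 49 and 92 bases before it. Of the 5 genes with a match, 3 fell in input with the replicate block (Dcp1b, Edc4 and Xrn2), and of the 3 with a window but no match, 2 did (Dcps and Xrn1, but not Edc3). The CCAAT box (CCAAT) was found in the windows of Dcps, Edc4 and Nudt16, the YY1 letters AAGATGGC in that of Dcp1b and the E-box CACGTG in that of Xrn2. Over the windows of tested genes these occurred in 39.4%, 4.95% and 10.6%. A match is a description of the letters and no evidence that a factor was bound.

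The first comparison asked which of these transcripts changed in the cytoplasmic lysate with RAM siRNA. Without a replicate term, 0 of the 10 genes passed an adjusted p of 0.05 by edgeR's quasi-likelihood test, against 12.9% of all 12805 genes. At an unadjusted p under 0.05 there were 3, Dcps (0.00670), Dcp1b (0.0231) and Xrn2 (0.0463), all lower, a share near the 28% of all genes. With the replicate number as a block, 6 of the 10 were lower and 0 higher. Of all 12805 genes 2433 were lower and 2595 higher, 39.3% in either direction. The 6 were Dcps, Dcp1b, Dcp2, Xrn1, Xrn2 and Edc4. The median log2 change of the 10 was -0.16, with 7 of 10 below 0, whereas over all tested genes the median was 0.0007 and 49.9% were below 0. DESeq2 called 1 of the 10, Dcps, where it called 15.4% of all genes. In 1 of the 10, Dcp1b, the 2 groups of 4 input libraries did not overlap, against 18% of all genes.

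Dcps, the scavenger enzyme (chromosome 9, 35124408 to 35176061, minus strand, GRCm38), showed the largest change of the 10. It had 34.8, 31.4, 31.0 and 37.5 CPM in control input and 23.1, 22.0, 22.8 and 33.6 CPM in RAM siRNA input, from 379 to 667 counts a library. Replicates 1 to 3 with RAM siRNA lay below every control library, and replicate 4 lay inside the control range, although it too was below the control library of the same number. The RAM siRNA mean was 75.3% of the control mean. The log2 change was -0.41 ± 0.13 with an adjusted p of 0.0512 without the block, and -0.42 ± 0.07 with an adjusted p of 3.91e-05 with it. Without RAM siRNA replicate 4, but with control replicate 4 kept, it was -0.57 (adjusted p = 0.00119), where 19.6% of all genes were called. With both libraries of replicate 4 left out of the blocked fit it was -0.52 (adjusted p = 6.18e-06). Dcps was the only one of the 10 that any fit without the block called in input. Fits with the block that left out replicate 1, 2, 3 or 4 called 28%, 31.4%, 33% and 38.8% of all genes and 4, 4, 4 and 5 of the 10, with Dcps among them each time.

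Among the core decapping genes, Dcp2 (44380502 to 44424969 on chromosome 18) had 348, 317, 346 and 296 CPM in control input and 307, 294, 300 and 249 CPM in RAM siRNA input. The groups overlapped, but all 4 pairs of the same number were lower with RAM siRNA, with ratios from 0.842 to 0.928. The change was -0.19 ± 0.09 (adjusted p = 0.191) without the block and -0.19 ± 0.04 (adjusted p = 0.00133) with it. Dcp1b, a decapping activator, had 13.7, 15.1, 14.4 and 15.8 CPM in control input and 13.5, 12.4, 12.0 and 12.7 CPM with RAM siRNA. The groups did not overlap, with 13.5 CPM the highest value with RAM siRNA and 13.7 CPM the lowest control value. Its change was -0.23 ± 0.09 (adjusted p = 0.111) and with the block -0.22 ± 0.08 (adjusted p = 0.0294), and it was called in 1 of the 4 fits with the block that left out a replicate number. Dcp1a, the other activator, moved the other way within a narrow range, 55.6 to 57.8 CPM in control input and 56.1 to 60.3 CPM with RAM siRNA. Its change of 0.05 ± 0.06 did not pass the test with or without the block (adjusted p = 0.663 and 0.433).

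Of the scaffolds, Edc4 had 63.3, 64.8, 56.2 and 64.4 CPM in control input and 52.7, 57.7, 55.6 and 58.8 CPM with RAM siRNA. All 4 pairs were lower, and 3 of the control libraries lay above all RAM siRNA libraries. The change of -0.15 ± 0.07 had an adjusted p of 0.183, and 0.0203 with the block. Edc3 had 13.9 ± 1.92 CPM in control input and 13.4 ± 1.68 CPM with RAM siRNA (SD, n = 4), a change of -0.06 ± 0.12 (adjusted p = 0.793, and 0.595 with the block).

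Both exonucleases were lower in input with RAM siRNA by the blocked test. Xrn1 had 71.4, 63.7, 76.2 and 63.8 CPM in control input and 62.5, 63.8, 62.4 and 55.6 CPM with RAM siRNA. In 3 of the 4 pairs it was lower, and in replicate 2 the ratio was 1.00. The change was -0.17 ± 0.08 (adjusted p = 0.181), and -0.17 ± 0.05 (adjusted p = 0.00963) with the block. Xrn2 had 174, 171, 151 and 175 CPM in control input and 156, 151, 137 and 155 CPM with RAM siRNA. Its 4 pairwise ratios were close to each other, from 0.883 to 0.907, whereas the libraries of either group spread over a wider range than the difference. The change was -0.17 ± 0.07 (adjusted p = 0.170), and -0.17 ± 0.04 (adjusted p = 0.00342) with the block. Dcp2, Dcps and Xrn2 were called in each of the 4 blocked fits that left out a replicate number, Edc4 and Xrn1 in 2 of the 4.

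The remaining enzymes did not pass the test in input in either fit. Dxo, the quality-control enzyme that acts on incomplete caps, had 25.4 to 28.7 CPM in control input and 25.3 to 30.7 CPM with RAM siRNA (log2 change 0.03 ± 0.08, adjusted p = 0.848). Nudt16, with only 65 to 93 counts a library, had 3.26 to 4.28 CPM and 3.65 to 5.08 CPM (0.16 ± 0.15, adjusted p = 0.532). Changes of the size seen for Dcp2 or Xrn1 could not be told from no change at the depth of Nudt16, where the standard error was 0.15.

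**Figure D2:**
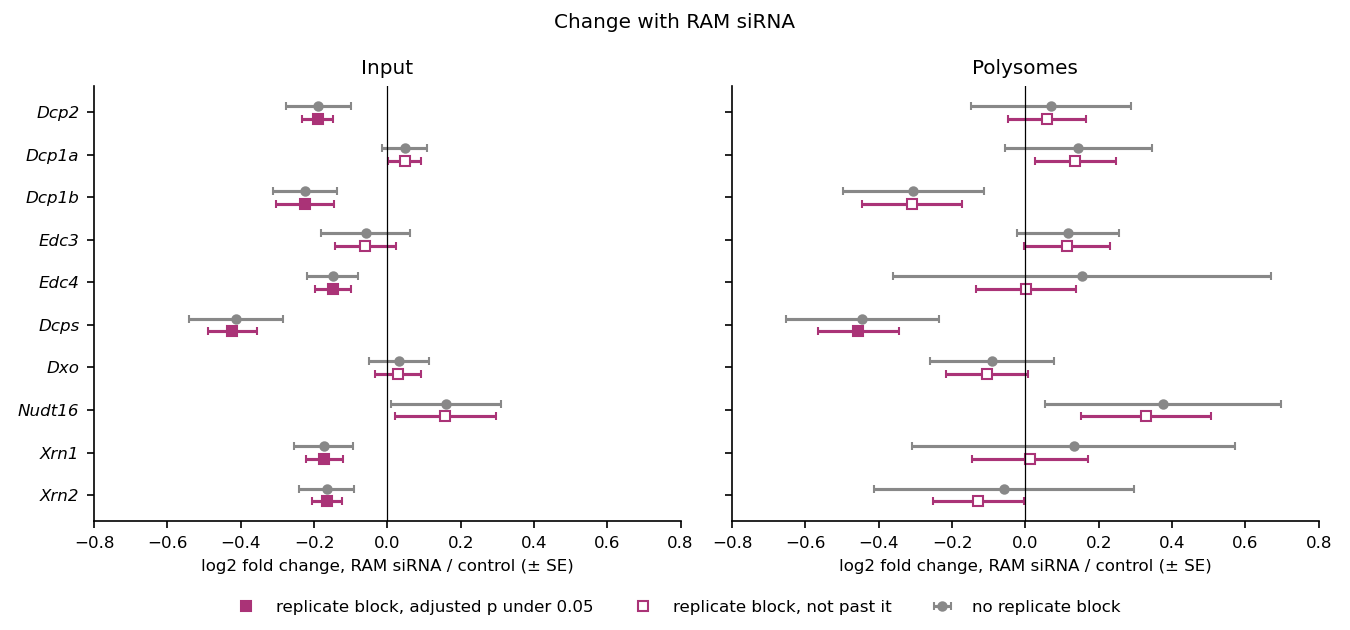
Log2 fold change (x axis, ± SE) of the 10 genes with RAM siRNA in input (left) and polysomes (right), without a replicate block (grey circles) and with it (purple squares, filled where the adjusted p was under 0.05). In input 6 filled squares lie to the left of 0, in polysomes 1 (Dcps), and without the block the errors of Edc4, Xrn1 and Xrn2 are much wider in polysomes than in input.

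In polysomes the same comparison gave 0 of 10 genes by edgeR's quasi-likelihood test without the block, where 0.0234% of all genes were called, and 0 of the 10 also by DESeq2 (2.34% of all genes) and at an unadjusted p under 0.05 (9% of all genes). With the block 1 of 10 was called, Dcps, against 14.6% of all genes. None of the 10 had polysome groups without overlap, against 6.56% of all genes. The median change of the 10 was 0.09 and that of all tested genes 0.06. Counts were scaled between libraries, so a change common to all transcripts would not appear in these values. The study reported a lower ratio of polysomes to monosomes with RAM siRNA. Dcps had 82.6, 72.8, 81.4 and 108 CPM in control polysomes and 62.3, 44.6, 61.2 and 76.7 CPM in RAM siRNA polysomes. It was lower with RAM siRNA in each of the 4 pairs, and the groups overlapped only through replicate 4 of RAM siRNA, which lay above the lowest control library. The change was -0.44 ± 0.21 (adjusted p = 0.585), and -0.46 ± 0.11 (adjusted p = 0.0122) with the block. That call was lost when replicate 1 or replicate 4 was left out of the blocked fit (adjusted p = 0.0547 and 0.0539), with changes of -0.50 and -0.49, where 6.29% and 7.17% of all genes were called.

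Dcp1b was lower in all 4 polysome pairs, with 6.33, 7.10, 7.84 and 8.41 CPM in control and 5.06, 5.10, 6.11 and 6.94 CPM with RAM siRNA. Its change of -0.31 ± 0.19 did not pass the test (adjusted p = 0.766, and 0.146 with the block). Dcp2 had 80.8, 89.1, 68.2 and 54.7 CPM in control polysomes and 79.8, 94.0, 71.7 and 51.5 CPM with RAM siRNA. Its groups were superimposed, 2 pairs were higher and 2 lower, and its change was 0.07 ± 0.22 (adjusted p = 0.986). Dcp1a (0.14 ± 0.20), Edc3 (0.12 ± 0.14), Dxo (-0.09 ± 0.17) and Nudt16 (0.38 ± 0.32) also did not pass the test in either fit.

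For Edc4, Xrn1 and Xrn2 the errors in polysomes were wide, and replicate 2 was the highest library in both groups, in control polysomes with replicate 1 close to it for Xrn1 and Xrn2. Replicate 2 was also the highest polysome library in control and RAM siRNA cells for Dcp1a (28.5 and 34.8 CPM) and Dcp2 (89.1 and 94.0 CPM). Edc4 had 25.6, 48.8, 14.9 and 26.5 CPM in control polysomes and 23.0, 69.5, 12.1 and 21.3 CPM with RAM siRNA. Xrn1 had 19.98, 23.2, 9.25 and 13.9 CPM in control and 15.4, 36.1, 8.96 and 10.2 CPM with RAM siRNA. Replicate 3 was the lowest library for both genes in both groups, and the same held for Xrn2, with 177, 201, 94.0 and 123 CPM in control and 133, 244, 75.4 and 102 CPM with RAM siRNA. Their changes were 0.15 ± 0.51, 0.13 ± 0.44 and -0.06 ± 0.35 without the block (adjusted p = 0.986, 0.986 and 0.994). Without RAM siRNA polysome replicate 2, but with control replicate 2 kept, the changes of Edc4 and Xrn1 turned to -0.57 and -0.47 (adjusted p = 0.486 and 0.492). With both libraries of replicate 2 left out of the blocked fit they were -0.194 and -0.243 (adjusted p = 0.115 and 0.106). With the block and without replicate 2, 3 of the 10 were called, Dcps and Xrn2 as lower and Nudt16 as higher, where the blocked fit of all replicates called 1. Over all genes the share called rose alike, from 14.6% to 35.6%.

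The elevation in replicate 2 went with coding length. Over 11902 tested genes with an annotated coding transcript and 3′ untranslated region (UTR), Spearman's rho between coding length and the polysome level of replicate 2 against replicates 1, 3 and 4 (log2 CPM, both siRNAs averaged) was 0.77, and in input it was 0.18, as a description across genes that share the same libraries. The 2983 genes with the shortest coding regions (up to 894 bases) had a median of -0.57 and the 2976 with the longest (from 2265 bases) a median of 0.56. Edc4, with 4221 coding bases, was 2.89-fold higher in replicate 2 than in the other replicates, Xrn1, with 5172 bases, 2.28-fold and Xrn2, with 2856 bases, 1.96-fold. Nudt16, with the shortest coding region of the 10 (588 bases), was at 0.596 of the others, and Dcps, with 1017 bases, at 0.739. Dcp2 and Dcp1b departed from the order, Dcp2 with 1269 bases being 1.37-fold higher in replicate 2 and Dcp1b with 1737 bases at 0.906 of the others. In input the same ratio of the 10 lay between -0.22 and 0.07 on the log2 scale. The polysome values of the long genes move with this shift of the whole library, and its part in their change with RAM siRNA was not tested beyond the values without replicate 2 given above.

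**Figure D3:**
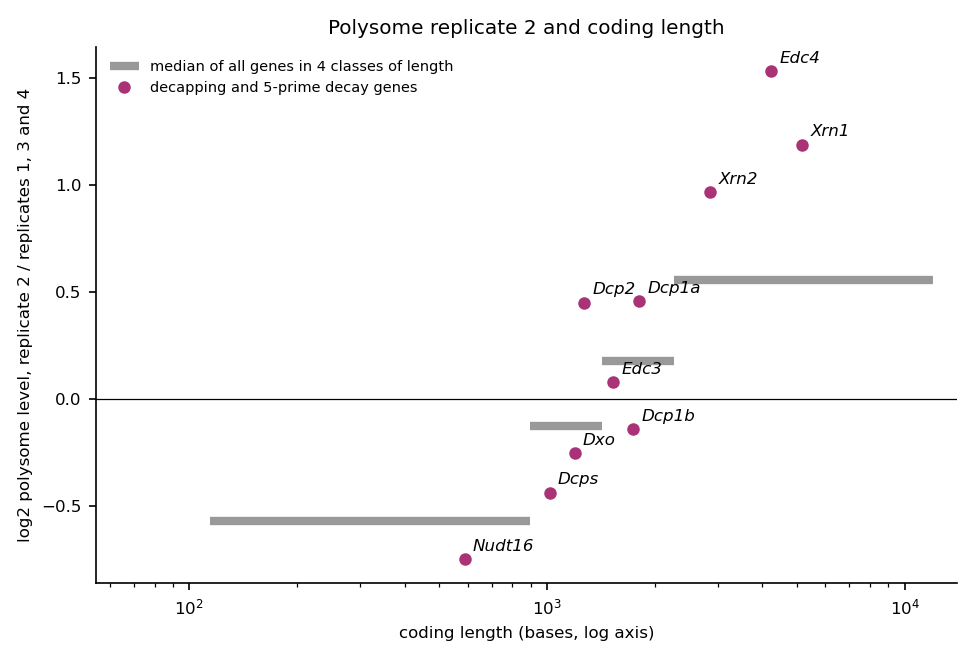
Log2 ratio of the polysome level in replicate 2 to that in replicates 1, 3 and 4 (y axis, both siRNAs averaged) against coding length in bases (log axis) for the 10 genes (points), with the median of all genes in 4 classes of coding length (grey bars, the last running past the axis). Edc4, Xrn1 and Xrn2 stand at the upper right, Nudt16 and Dcps at the lower left, Dcp2 above and Dcp1b below their classes, and the medians of all genes rise from -0.57 to 0.56.

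The change of polysome loading, or how far the polysome change departed from the input change, was tested as an interaction over all 16 libraries. It too is relative to the other transcripts, because counts were scaled between libraries. By edgeR's quasi-likelihood test 0 of the 10 genes passed, with 0% of all genes called, and 0 of the 10 had an unadjusted p under 0.05, against 0.781% of all genes (100). DESeq2 also called 0 of the 10, and 0.00781% of all genes. With a replicate block within each fraction 0 of the 10 passed, against 0.0156% of all genes. The largest of the 10 estimates were 0.27 ± 0.57 for Edc4 and 0.26 ± 0.49 for Xrn1, and the best-measured was -0.17 ± 0.17 for Dxo. For Dcps the estimate was -0.08 ± 0.25, and -0.08 ± 0.12 with the block, so a difference between its falls in input and in polysomes was not detectable.

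The comparison with the largest differences was that of polysomes with input in control cells, which gives the polysome loading of each transcript relative to the average transcript. Of the 10 genes, 5 were lower in polysomes, 2 were higher and 3 did not pass the test, against 67.4% of all genes called. The blocked fit gave the same 7 genes, against 72.3% of all genes. The 4 control polysome and 4 control input libraries did not overlap for the same 7 genes, against 61% of all genes. The median of the 10 was -0.62 on the log2 scale and that of all tested genes -0.0008. The share called was thus close to that of the table, and the values of the single genes carry the description.

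Dcp2 and Xrn1, the catalytic steps of cap removal and 5′ digestion, were the least loaded of the 10. The Dcp2 level in control polysomes was 23.2%, 28.1%, 19.7% and 18.5% of that in input of the same replicate, and its log2 change was -2.20 ± 0.16 (adjusted p = 7.28e-07). For Xrn1 the shares were 28.0%, 36.4%, 12.1% and 21.8%, with a change of -2.09 ± 0.23 (adjusted p = 1.42e-05). Only 3.11% of the tested genes had a lower value than Dcp2, and 3.63% a lower value than Xrn1. Dcp1a (-1.25 ± 0.14), Edc4 (-1.14 ± 0.27) and Dcp1b (-1.02 ± 0.14) were also lower in polysomes, with adjusted p-values of 1.14e-05, 0.00328 and 4.94e-05. All of Dcp2, its activators and Edc4 were thus less represented in polysomes than in the lysate, and Edc3 (0.16 ± 0.13, adjusted p = 0.272) was the exception among the decapping complex. Edc3 was at 1.44 and 1.24 times its input level in replicates 1 and 2, and at 0.981 and 1.01 times in replicates 3 and 4. It overlaps Clk3 on the other strand, with 23.0 CPM in control input and 29.2 CPM in control polysomes, so shared reads cannot be told apart.

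Dcps and Dxo, which act on cap remnants and incomplete caps, were better loaded than average. Dcps was 2.37-, 2.32-, 2.63- and 2.89-fold higher in polysomes than in input of the same replicate, a log2 change of 1.32 ± 0.14 (adjusted p = 1.21e-05). A higher value than that of Dcps was rare in the table, since 97.3% of the tested genes lay below it. Dxo was 1.60-, 1.77-, 1.88- and 1.82-fold higher (0.78 ± 0.11, adjusted p = 6.66e-05). Xrn2 (-0.21 ± 0.20, adjusted p = 0.370) and Nudt16 (-0.07 ± 0.18, adjusted p = 0.732) did not pass the test. Xrn2 was at 1.01 and 1.18 times its input level in replicates 1 and 2 and at 0.624 and 0.700 times in replicates 3 and 4, so its log2 change was 0.08 in a fit of replicates 1 and 2 only (adjusted p = 0.545) and -0.59 in one of replicates 3 and 4 only (adjusted p = 0.0298).

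**Figure D4:**
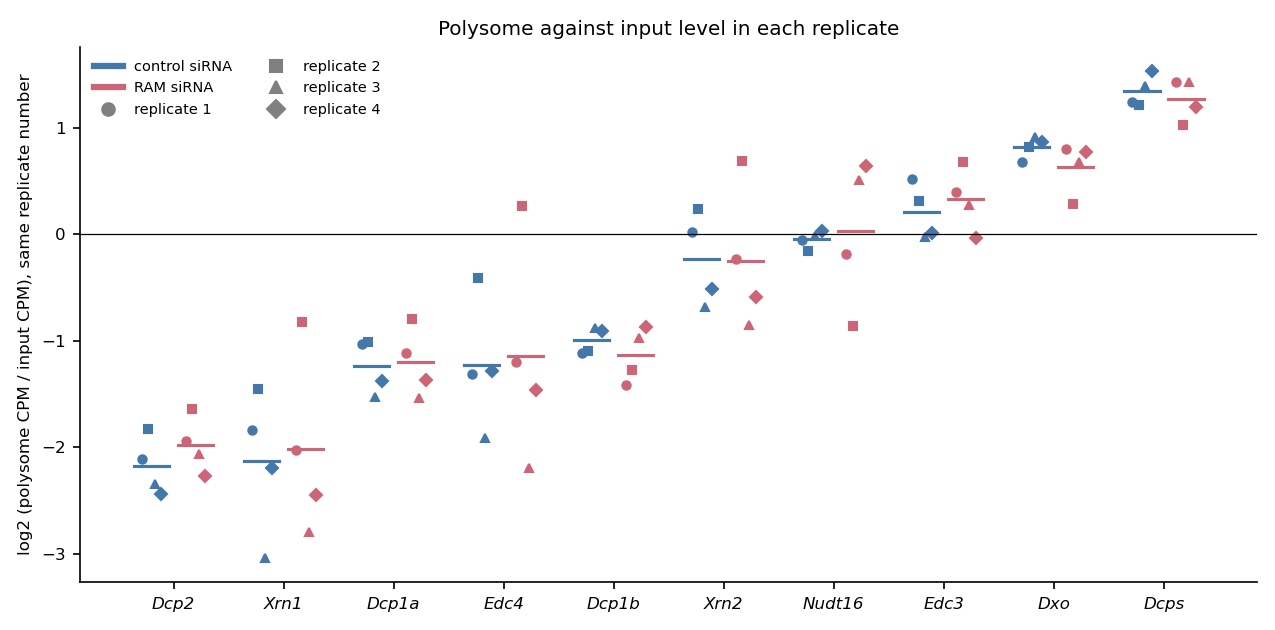
Log2 ratio of polysome CPM to input CPM of the same replicate number (y axis) for the 10 genes, ordered by their change in control cells, in control (blue) and RAM siRNA (red) cells, with symbols for the replicates and a line at the mean of 4. Dcp2 and Xrn1 lie at the bottom and Dcps at the top under both siRNAs, and replicate 2 of RAM siRNA is the highest point for Dcp1a, Dcp2, Edc3, Edc4, Xrn1 and Xrn2.

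In RAM siRNA cells the same genes lay at both ends. Dcp2 polysome levels were 20.7% to 32.0% of input there, those of Xrn1 14.4% to 56.5%, and those of Dcps 2.03- to 2.70-fold of input. Edc4 spread most, from 0.218 in replicate 3 to 1.20 in replicate 2.

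The transcripts of the 10 genes differ widely in the length of the 3′ UTR, from 96 bases in Dxo and 164 in Dcps to 3757 in Dcp1a, 4004 in Edc3 and 7240 in Dcp2 (longest coding transcript, GENCODE annotation of GRCm38). Over the 11902 genes, loading in control cells had a Spearman's rho of -0.32 with 3′ UTR length and -0.17 with coding length, again a description across genes of the same libraries. The 2980 genes with the shortest 3′ UTRs (up to 385 bases) had a median log2 loading of 0.34 and the 2976 with the longest (from 1981 bases) one of -0.46. Dcps and Dxo, with short 3′ UTRs, lay above these medians, and Dcp2 and Dcp1a, with long ones, lay below. Xrn1, with a 3′ UTR of 218 bases in this transcript, and Edc4, with 363 bases, were poorly loaded with short 3′ UTRs. They have coding regions longer than those of 95.8% and 93.3% of the genes. The exons of Xrn1 cover 18585 bases and this transcript 5499, so its 3′ UTR length in these cells was not established. Edc3 was the reverse case, at 0.20 with a 3′ UTR longer than those of 93.5% of the genes, with the limit of its overlap with Clk3.

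**Figure D5:**
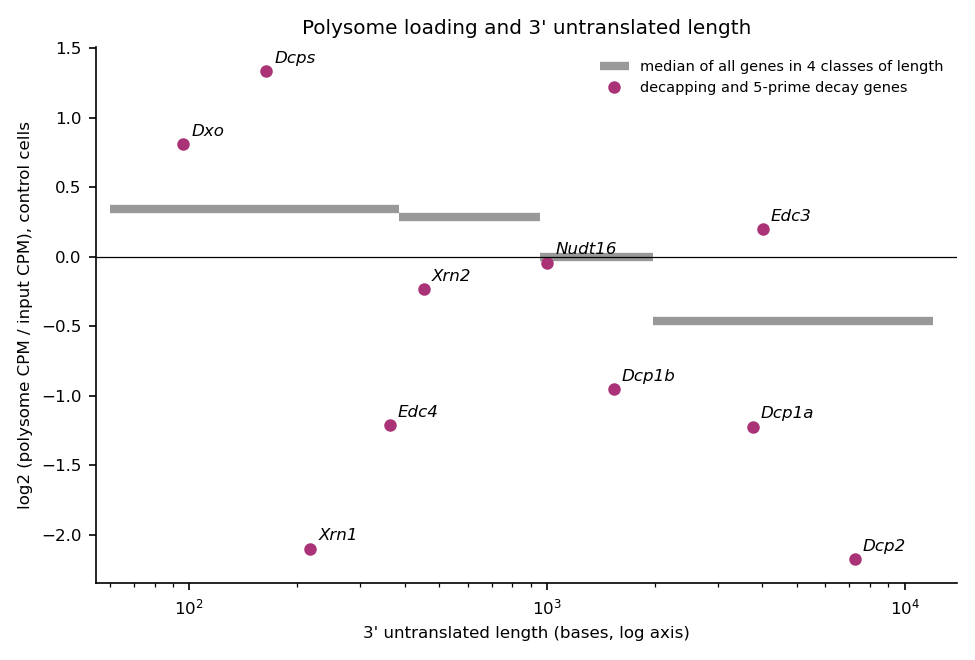
Log2 ratio of polysome to input CPM in control cells (y axis) against the 3′ untranslated length of the longest coding transcript in bases (log axis) for the 10 genes (points), with the median of all genes in 4 classes of length (grey bars, cut at the ends of the axis). Dcp2 lies at the lower right and Dcps and Dxo at the upper left, while Xrn1 and Edc4 lie low with short untranslated regions in that transcript and Edc3 lies above its class.

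The genes whose log2 CPM followed each of the 10 most closely over the 16 libraries (Pearson's r, dominated by the difference between fractions) were examined as a description. For Dcp2 they were Btbd7 (r = 0.997), Ddi2 (0.996) and Usp31 (0.996), for Xrn1 Rictor (0.996), Ercc6 (0.995) and Kdm5a (0.995), and for Dcps Sae1 (0.994), Ccna2 (0.993) and Gnpda1 (0.992). The nearest to Dcp1a was Zc3h7a (0.996), to Edc4 Pola1 (0.996), to Dxo Eipr1 (0.991), to Dcp1b Foxm1 (0.990), to Xrn2 Caprin1 (0.986) and to Nudt16 Slamf9 (0.938). Edc3 had no close neighbour, its nearest being Hsf2 with 0.844. Within the 10, the closest pair was Dcp1a and Xrn1 (0.984) and the most opposed pair Dcp2 and Dxo (-0.969).

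The other genes of the decay pathways were taken as 4 lists. The first held 15 tested decapping activators and P-body factors, which help recruit the decapping complex to deadenylated mRNA. Without the block 1 was lower in input and 0 higher (median -0.08), against 12.9% of all genes called. With the block 6 were lower and 3 higher, against 39.3% of all genes. The one called without the block was Lsm14a, an RNA-binding P-body protein, at 80.2 ± 2.30 CPM in control and 67.4 ± 4.06 CPM with RAM siRNA (SD, n = 4, log2 change -0.25 ± 0.07, adjusted p = 0.0249). Its paralog Lsm14b rose with the block, by 0.32 ± 0.05 (adjusted p = 4.46e-05, and 0.0940 without the block). In control polysomes 10 of these 15 were lower than in input and 1 was higher, with a median of -0.62 beside -0.62 for the 10 enzymes. Over all genes 67.4% were called, 4388 lower and 4240 higher.

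Of 6 tested other Nudix hydrolases, 0 were lower and 2 higher in input, and with the block 1 and 2. The shares of all genes were 12.9% and 39.3%, here and for the lists that follow. Nudt3, which can remove caps from some mRNAs, rose from 58.1 ± 2.04 to 80.2 ± 4.70 CPM (0.46 ± 0.07, adjusted p = 0.000987), and Nudt19 was lower only with the block (-0.31 ± 0.08, adjusted p = 0.00466). None of 16 deadenylases and partners, which shorten the poly(A) tail before decapping, passed the test in input. At an unadjusted p under 0.05 there was 1, against 28% of all genes. With the block 3 were lower and 0 higher, the largest fall being that of Tob1, a CCR4-NOT adaptor (-0.32 ± 0.06, adjusted p = 0.000133). Of 16 tested subunits of the RNA exosome and the Ski complex, which degrade RNA from the 3′ end, 0 were lower and 1 higher, Exosc5 (0.28 ± 0.08, adjusted p = 0.0400), and with the block 4 were lower and 2 higher, with Exosc3 the largest fall (-0.23 ± 0.05, adjusted p = 0.00178). In polysomes 0 genes of the 4 lists passed the edgeR test without the block, against 0.0234% of all genes. At an unadjusted p under 0.05 there were also 0, against 9% of all genes. With the block 2 deadenylase genes were lower and 1 Nudix gene higher, against 14.6% of all genes. Unlike the decapping lists, the deadenylases (4 lower, 8 higher, median 0.17) and the exosome and Ski genes (3 lower, 9 higher, median 0.62) in control cells included more genes higher than lower in polysomes, a difference between lists that was not tested. Of all genes 67.4% were called in that comparison.

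Several of the 10 genes overlap other genes in the annotation, and whether the counting used the strand of the reads is not given in the sources used here. Dxo overlaps Skiv2l on the other strand, which had 22.5 CPM in control input beside 27.2 for Dxo, and Edc3 overlaps Clk3, with 23.0 CPM beside 13.9 for Edc3, so shared reads cannot be told apart for these genes. The antisense genes at Dcps stayed at or under 1.57 CPM in every group mean, and the genes that overlap Dcp1a, Dcp1b, Edc4 and Xrn1 at or under 3.89 CPM.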

How the data were processed

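The 16 libraries were made with a stranded total RNA kit after ribosomal RNA removal. The authors mapped the reads to GRCm38 (mm10) with STAR 2.5.1b and deposited raw counts per gene from HTSeq, unnormalized and unfiltered; its strand setting is not given in the sources used here. Gene IDs were paired with symbols, lengths and neighbours through the GENCODE annotation of GRCm38 (46488 of 46983 IDs matched), and 0 columns belonged to other samples. Genes with at least 1 CPM in at least 10 libraries were kept. Each comparison was fitted over all 12805 genes with edgeR 4.0.16 in R 4.3.3 (glmQLFit, glmQLFTest, TMM scaling within the fit, Benjamini-Hochberg adjustment, threshold 0.05), on the 8 libraries of the 2 groups or, for the change of loading, on all 16. Printed CPM use TMM factors over all 16 libraries, and log2 CPM a pseudocount of 0.5 CPM. The scripts were tested on simulated counts.

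The replicate numbers of the labels paired the libraries. Across 9140 genes averaging 10 CPM or more, libraries that share a number deviated together from their group means, with correlations of 0.400 to 0.797 in input, 0.625 to 0.944 in polysomes and 0.237 to 0.711 between fractions, while other pairings averaged -0.13 to -0.27. Blocked values are therefore given beside the others. Groups came from the sample titles. The labels number the replicates and the study calls them biological. No pair of libraries of a group agreed within sampling noise. Alternatives were RLE, upper-quartile and library-size scaling, no filter and filterByExpr, DESeq2 1.42.0, limma-voom 3.58.1, all libraries in 1 fit, the replicate block, pairs of replicates and leaving out each library. The blocked fits without 1 replicate number were chosen after seeing the data. The genes named are the 10 members, Ramac and Rnmt, the largest fall and rise of each wider list in input past the threshold without the block (or else with it), and the nearest genes by Pearson's r. The members, lists and tests were chosen with earlier results of these data known.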

Additional observations from a re-analysis of the deposited data

Results flagged for a closer look

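Of 40 groups of 4 libraries (10 genes in 4 groups) tested for a library apart by Dixon's criterion, 1 passed it, where chance flags about 1 in 20 groups. Dcps in RAM siRNA input had 33.6 CPM in replicate 4, and 22.0 to 23.1 CPM in the other 3 replicates. The gap to the nearest library was 0.904 of the range, above the 95% critical value for 4 samples. In control input replicate 4 was also the highest library for Dcps, at 37.5 CPM.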

How the results depend on the processing

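With RAM siRNA in input, the number of the 10 genes called was 0, and 6 with the replicate block. No filter on low counts, filterByExpr, DESeq2 and limma-voom each called 1, Dcps, at an adjusted p between 0.00221 and 0.0453, where they called 7.36% to 15.4% of all genes, whereas it missed the threshold under RLE, upper-quartile and library-size scaling (0.0502 to 0.0589) and in 1 fit of all 16 libraries (0.364). Leaving out single libraries gave 0 to 1, against 7.13% to 19.6% of all genes, Dcps being called without control replicate 3 or RAM siRNA replicate 4. The block without replicate 1, 2, 3 or 4 gave 4, 4, 4 and 5, against 28% to 38.8% of all genes. In polysomes the number was 0, with the block 1, and with the block without replicate 2 or replicate 3 it was 3 and 1, against 35.6% and 9.35% of all genes. It was 0 for the change of loading under all 32 alternatives, against 0% to 1.35% of all genes. For polysomes against input in control cells it was 7 or 8, against 44.3% to 72.3% of all genes. Edc3 was added there with replicates 1 and 2 only, and Xrn2 with replicates 3 and 4 only or with the block without replicate 2. The 6 genes lower in input with the block lay below 0 under all 21 alternatives each. The block changed no other call of the 10 genes.

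The values that changed sign were small or had wide errors, and none of the values of opposite sign passed the threshold. In input, Dxo ranged from -0.0162 to 0.0702 and Edc3 from -0.138 to 0.0104 without single libraries, and with the block Dxo was -0.00164 without replicate 2 and Edc3 0.0137 without replicate 3. In polysomes, leaving out single libraries gave -0.0116 to 0.221 for Dcp1a, -0.0805 to 0.189 for Dcp2, -0.210 to 0.0148 for Dxo, -0.569 to 0.538 for Edc4, -0.466 to 0.339 for Xrn1 and -0.463 to 0.128 for Xrn2. There Dcp2 was -0.00042 with library-size scaling, Edc4 -0.0162 and Xrn1 -0.0125 with limma-voom, Xrn2 0.0282 with replicates 1 and 2 only, and Edc4 -0.261 and Xrn1 -0.215 with replicates 3 and 4 only. With the block without replicate 2, Edc4 was -0.194 and Xrn1 -0.243.

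For the change of loading, leaving out single libraries gave -0.124 to 0.150 for Dcp1a, -0.212 to 0.137 for Dcps, -0.479 to 0.642 for Edc4, -0.0617 to 0.392 for Nudt16, -0.359 to 0.482 for Xrn1 and -0.359 to 0.267 for Xrn2. Xrn2 was -0.0132 with the replicate block within each fraction, -0.0202 with a block for each culture and -0.0111 with limma-voom. With replicates 1 and 2 only, Dcps was 0.0710 and Nudt16 -0.297, and with replicates 3 and 4 only, Edc4 was -0.233, Xrn1 -0.0250 and Xrn2 -0.123. With the block without replicate 2, Dcp1a was -0.0282, Edc4 -0.112, Xrn1 -0.0765 and Xrn2 -0.173, without replicate 3 Nudt16 was -0.0118, and without replicate 4 Dcps was 0.0683. For polysomes against input in control cells, Nudt16 ranged from -0.169 to 0.0427 without single libraries and was 0.0635 without a filter, 0.0243 with filterByExpr and 0.0109 with replicates 3 and 4 only, Xrn2 was 0.0759 with replicates 1 and 2 only, and Edc3 -0.00662 with replicates 3 and 4 only. Without a filter the median of all genes in that comparison was -0.34. The cause of these changes was not tested. Nudt16, at 39 to 113 counts a library, is the gene that depth limits most, and polysome values are limited by the spread between replicates.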
